A study of Mus musculus with 6 samples.

Results

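The 10 genes described here encode surface, secreted and lysosomal proteins tied to the disease-associated state of microglia: Trem2, Tyrobp, Cst7, Cd9, Cd63, Cd52, Axl, Lgals3, Csf1 and Gpnmb. They were taken as a named list, of 19361 genes in the tables, and followed in microglial barcodes of all 6 libraries and in other myeloid barcodes of the same libraries. A microglial barcode held 3 or more UMIs (unique molecular identifiers, each standing for one captured transcript) summed over P2ry12, Tmem119, Siglech and Gpr34, and none of the 10 genes took part in that choice. This gave 3074 microglial and 943 other myeloid barcodes of 6000.

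Single cells were captured in droplets (Drop-seq) from perfused, papain-digested brains of female mice aged 2 to 3 months, after a density gradient and magnetic enrichment for Cd11b, a surface integrin of myeloid cells. Libraries metastasis 1 and metastasis 2 came from C57BL/6 mice with brain metastases 2 to 3 weeks after E0771 cells, a mouse mammary carcinoma line, were injected into the heart. Libraries naive 1 and naive 2 came from wild-type C57BL/6 mice without metastases. The Cx3cr1-null (Cx3cr1-/-) and Cx3cr1-het (Cx3cr1+/-) libraries came from C57BL/6 mice carrying the same metastases, so both of these lack at least 1 functional copy of the fractalkine receptor gene, and each pooled 2 brains. The other 4 libraries were 1 brain each. Replicate 1 of both groups was sequenced on a HiSeq instrument and every other library on a NextSeq, so replicate number and instrument cannot be told apart.

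The carcinoma transcripts Rhox5 and Esx1 went against the labels of replicate 2. Rhox5 had 1340 UMIs in the library labelled metastasis 1, 27 in naive 2, 11 in Cx3cr1-null and 33 in Cx3cr1-het, and was not listed for metastasis 2 or naive 1. Esx1 had 524 UMIs in metastasis 1 and 37 in naive 2, and was again not listed for metastasis 2 or naive 1. At the rate of naive 2, the library labelled metastasis 2 would have held 8.18 Rhox5 and 11.2 Esx1 UMIs. In addition, the names of the deposited count tables give the opposite group from the labels for all 4 libraries of unmodified mice, so under those names metastasis and naive would change places in both replicates. Rhox5 and Esx1 go with the label in replicate 1 and with the table's name in replicate 2. The groups below keep the labels, every library name stands for "the library labelled" so, and each value is given per library.

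Depth also differed. The tables held 1000 barcodes each and 491621 (metastasis 2) to 2667099 (metastasis 1) UMIs, and the median microglial barcode held 2241 UMIs in metastasis 1, 387 in metastasis 2, 893 in naive 1, 1434 in naive 2, 1373 in Cx3cr1-null and 1760.5 in Cx3cr1-het. One barcode sequence was shared, between Cx3cr1-null and naive 2, and none between any other 2 libraries. Microglial barcodes also carrying 3 or more UMIs of another class numbered 150 of 189 in metastasis 1, 54 of 329 in metastasis 2, 152 of 706 in naive 1, 240 of 397 in naive 2, 607 of 785 in Cx3cr1-null and 561 of 668 in Cx3cr1-het. Cx3cr1, the targeted gene, had 62.9 CPM (counts scaled to 1e+06 UMIs of the barcodes summed) in microglial barcodes of Cx3cr1-null, against 1332 CPM in Cx3cr1-het.

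As background, TREM2 is a lipid-sensing receptor of microglia and some macrophages that has no signalling motif of its own and pairs with the adaptor TYROBP (DAP12), which recruits the kinase SYK. In mouse models of amyloid and neurodegeneration, TREM2 signalling is needed for microglia to enter the full disease-associated state. That state lowers homeostatic genes such as P2ry12 and Tmem119 and raises others, among them Cst7, Cd9, Cd63, Cd52, Axl, Csf1, Gpnmb and Lgals3. P2ry12 and Tmem119 are also part of the rule for microglial barcodes. Microglia far into that state may thus fall outside the rule, among other myeloid or unnamed barcodes. A fixed number of UMIs is also harder to reach in shallow barcodes. How many cells either affected was not tested.

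All 10 genes are protein coding in GENCODE M21 on build GRCm38, the assembly called mm10 in the submitters' processing notes. Trem2 lies on chromosome 17 (chr17:48346401-48354147, plus strand), Csf1 on chromosome 3 (chr3:107741048-107760469, minus strand) and Lgals3 on chromosome 14 (chr14:47367751-47386160, plus strand). Cd9 overlaps 2 genes on the opposite strand, Gm28809 and Gm26728, and Cd52 overlaps Crybg2 on the opposite strand. Cd9 and Cd63 each have a named pseudogene copy, Cd9-ps and Cd63-ps. How the authors' counting treated strand and shared reads is not given in the sources used here, so the values of Cd9, Cd52 and Cd63 are uncertain to that extent.

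The 250 bases before the annotated start are shown for Trem2 and Csf1, which were lower in other myeloid barcodes, and for Lgals3, which was higher there. They come from RefSeq (GRCm38.p6), run 5′ to 3′ on the gene's own strand, and lie at chr17:48346151-48346400 (plus), chr3:107760470-107760719 (minus) and chr14:47373610-47373859 (plus). Promoters were matched for 8 of the 10 genes, the exceptions being Tyrobp and Cd52. Capitals mark the single motif match found.
Trem2: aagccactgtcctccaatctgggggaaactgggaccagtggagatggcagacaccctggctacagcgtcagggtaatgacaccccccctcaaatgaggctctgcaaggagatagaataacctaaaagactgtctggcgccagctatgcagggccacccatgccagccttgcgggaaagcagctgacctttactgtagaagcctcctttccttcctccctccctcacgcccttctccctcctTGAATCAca
Csf1: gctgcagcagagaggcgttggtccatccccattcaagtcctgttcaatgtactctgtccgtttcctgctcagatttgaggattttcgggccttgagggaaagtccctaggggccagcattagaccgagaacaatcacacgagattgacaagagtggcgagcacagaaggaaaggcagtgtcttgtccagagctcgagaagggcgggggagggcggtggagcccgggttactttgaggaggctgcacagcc
Lgals3: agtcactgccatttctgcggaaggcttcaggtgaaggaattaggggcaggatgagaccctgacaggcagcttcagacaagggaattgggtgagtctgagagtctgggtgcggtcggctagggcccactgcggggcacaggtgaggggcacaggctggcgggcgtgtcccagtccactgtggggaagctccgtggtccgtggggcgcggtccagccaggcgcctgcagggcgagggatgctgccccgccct
Both strands of the 250 bases were searched for 4 motifs. The pattern TGANTCA, a loose form of the AP-1 motif with any base in the middle, was found 9 bases upstream of the start in Trem2. It was in none of the other 7 members' promoters, while 6.75% of 32851 promoters held it. The stretch in Trem2 reads TGAATCA, with A in the middle where the usual AP-1 site has G or C. The E-box CACGTG (6.02% of promoters), the PU.1 motif GAGGAAGT (2.44%) and an interferon regulatory factor motif, GAAA and GAAA with any 2 bases between them (2.98%), were not found in the 8 members' windows. These matches describe letters, not bound sites. For Lgals3, the RefSeq start lies inside the GENCODE gene span given above, so its window is not upstream of the whole span.

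In microglial barcodes, the receptor pair did not separate metastasis from naive libraries. Trem2 had 474 and 1558 CPM in metastasis 1 and 2, against 1602 and 1211 CPM in naive 1 and 2. The library labelled metastasis 1 lay far below the other 3, and metastasis 2 lay between the naive libraries. Tyrobp had 1491 and 1980 CPM in metastasis 1 and 2, against 2177 and 1678 CPM in naive 1 and 2, and the groups overlapped. The mean was 1016 ± 766 CPM for Trem2 in metastasis and 1406 ± 276 CPM in naive libraries (SD, n = 2 each). In sums over barcodes, fewer transcripts per microglial cell and a share of other RNA in the barcode cannot be told apart.

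The tetraspanins, membrane organisers that also mark endosomes and exosomes, differed from each other. Cd9 had 1035 and 904 CPM in metastasis 1 and 2, against 710 and 642 CPM in naive 1 and 2, and its groups did not overlap. It was the only 1 of the 10 genes of which this held, and among the 8123 genes tested 16.1% were higher in both metastasis libraries than in both naive ones and 10.4% were lower in both. Cd63 had 927 and 445 CPM in metastasis 1 and 2, against 402 and 579 CPM in naive 1 and 2, with metastasis 1 above the rest. Cd52, a small lipid-anchored glycoprotein of leukocytes, had 1003 and 295 CPM in metastasis 1 and 2, against 355 and 452 CPM in naive 1 and 2. Its highest and lowest values both carried the metastasis label.

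Lgals3 (galectin-3, a secreted sugar-binding protein reported as a TREM2 ligand) had the widest spread of the 10 genes between the 2 metastasis libraries among genes detected in both. It had 2365 and 22.4 CPM in metastasis 1 and 2, against 24.2 and 406 CPM in naive 1 and 2. Metastasis 1 and naive 2 were high, and metastasis 2 and naive 1 were low. Gpnmb, a transmembrane glycoprotein of lysosome-rich phagocytes, followed the same split, with 248 CPM in metastasis 1 and no UMI in metastasis 2, against none in naive 1 and 80.4 CPM in naive 2. A count of 0 allowed up to 11.2 CPM in metastasis 2 and 2.90 CPM in naive 1, and these limits cover counting error only. With a floor of 3 counts in place of each 0, Gpnmb was 85.5-fold higher in metastasis 1 than in naive 1. With the same floor it was 7.18-fold lower in metastasis 2 than in naive 2. These folds are not lower bounds. The counting interval of the log2 ratio, metastasis over naive, began at 6.10 for metastasis 1 over naive 1. It ended at -2.51 for metastasis 2 over naive 2.

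Axl, a receptor kinase for apoptotic-cell ligands, had 67.7 and 11.2 CPM in metastasis 1 and 2 (42 and 3 UMIs), against 24.2 and 59.3 CPM in naive 1 and 2. Csf1, the ligand of the receptor on which microglia depend for survival, had 221 and 116 CPM in metastasis 1 and 2, against 121 and 263 CPM in naive 1 and 2. Cst7 (cystatin F, a lysosomal protease inhibitor) rested on few molecules, with 24.2 and 3.74 CPM in metastasis 1 and 2 (15 UMIs and 1 UMI), against 15.5 and 70.9 CPM in naive 1 and 2. For 7 of the 10 genes (Cst7, Cd63, Cd52, Axl, Lgals3, Csf1 and Gpnmb), metastasis 1 and naive 2 lay above metastasis 2 and naive 1. This split was read off the same data, and its share over all genes was not counted. Same-numbered libraries deviated oppositely over all 8123 genes (r = -0.36), so the split is not read as particular to the members.

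**Figure D1:**
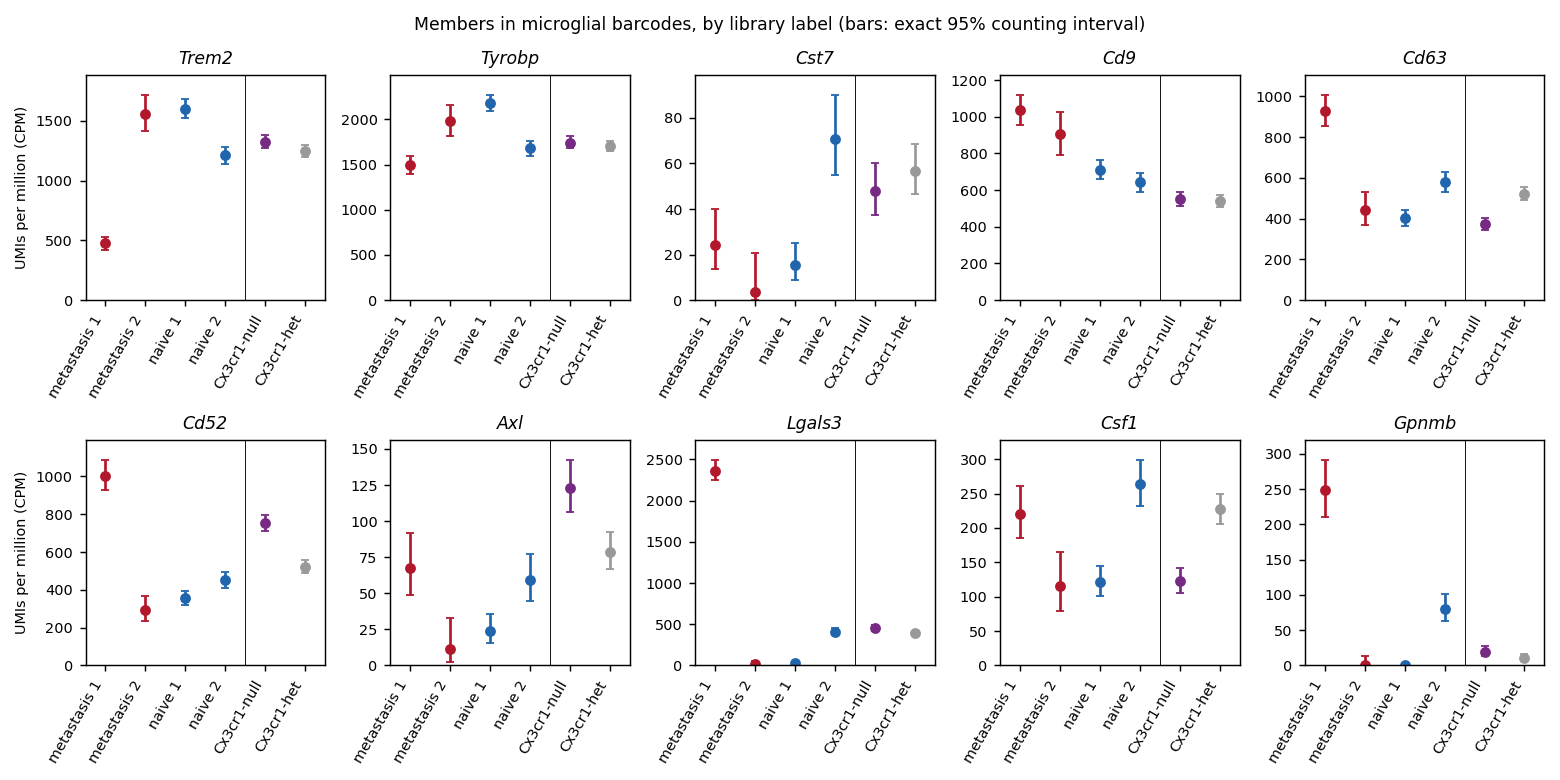
CPM of each of the 10 genes (vertical axes, from 0) in microglial barcodes of the 6 libraries (horizontal axis, by label), with exact 95% Poisson intervals as bars, which cover counting error only. Lgals3 stood at 2365 CPM in metastasis 1 and at 22.4 CPM in metastasis 2, and Cd9 was the one gene whose metastasis values (1035 and 904 CPM) both exceeded its naive values (710 and 642 CPM).

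Tested over the 4 libraries, none of these differences was called. The edgeR quasi-likelihood test with Benjamini-Hochberg adjustment called 0 of 8123 genes at an adjusted p under 0.05 (0% in either direction), and thus 0 of the 10 members. At an unadjusted p under 0.05 it had 111 genes (0.739% higher and 0.628% lower), and DESeq2 called 0 by adjusted p and 48 by unadjusted p. The log2 change of Cd9 was 0.41 (SE 0.49) and that of Trem2 was -0.55 (SE 0.73). Lgals3 had a log2 change of 2.39 (SE 1.82), which was -3.20 without metastasis 1 and 3.38 without metastasis 2. All 10 adjusted p-values were 1.00 in this edgeR fit. Each library was 1 brain. The p-values rest on the spread between libraries, estimated in part over all genes, and some of that spread may be technical. Leaving out metastasis 1 gave 2 calls over all genes, leaving out naive 1 gave 1 and leaving out naive 2 gave 3, none of them a member.

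Within the replicate pairs, 8 of the 9 members with at least 50 UMIs over each pair had ratios of opposite sign with 0 outside both counting intervals. Cst7 had fewer UMIs in replicate 1. Opposite ratios of this kind were seen for 17.3% of the 4118 genes with at least 50 UMIs over each pair, among which intervals are wider for genes with fewer UMIs. Deviations of same-numbered libraries from their group means were opposed over all 8123 genes (r = -0.36). Trem2 was 1.76 log2 units lower in metastasis 1 than in naive 1 (log2 ratio -1.76, 95% counting interval -1.94 to -1.58) and its log2 ratio was 0.36 (0.20 to 0.53) for metastasis 2 over naive 2. Cd63 had log2 ratios of 1.21 (1.02 to 1.39) in replicate 1 and -0.38 (-0.68 to -0.09) in replicate 2, both metastasis over naive. Lgals3 had log2 ratios of 6.61 (6.04 to 7.24) in replicate 1 and -4.18 (-5.64 to -3.04) in replicate 2. Cd9 had log2 ratios of 0.54 (0.39 to 0.70) in replicate 1 and 0.49 (0.27 to 0.71) in replicate 2. Among genes with at least 50 UMIs over a pair, a ratio of more than 1.5-fold upward was seen for 37.4% in replicate 1 and 15.9% in replicate 2, and downward for 19.8% and 22.8%, so shifts of this size were common between these libraries.

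The other lists of the same pathways were read beside the members, and in the 4-library fit none of their genes passed the test either. Of the 14 homeostatic genes tested, 13 lay below 0, with a median log2 change of -0.43, against 0.01 over all genes. Other disease-associated genes had a median log2 change of 0.06 over 18 genes tested, and the signalling partners of Trem2 and Tyrobp had -0.19 over 16. The pair values again differed: the homeostatic genes had a median log2 ratio of -1.94 for metastasis 1 over naive 1 and of 0.53 for metastasis 2 over naive 2.

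In metastasis 1, several members were as abundant outside myeloid barcodes as within them. Lgals3 had 2924 CPM in other myeloid, 2365 in microglial, 1977 in lymphoid and natural killer and 2692 CPM in carcinoma-like barcodes of that library. Cd9 and Cd63 had 1287 and 1269 CPM in the carcinoma-like barcodes, against 1035 and 927 CPM in the microglial ones. Gpnmb had 162 CPM in carcinoma-like and 248 CPM in microglial barcodes. Trem2 and Tyrobp were low in the carcinoma-like barcodes, at 76.4 and 147 CPM, against 474 and 1491 CPM in microglial barcodes. Rhox5 itself had 351 CPM in the microglial barcodes of metastasis 1, where the 7 carcinoma-like markers summed to 638 CPM, against 0 to 55.0 CPM in microglial barcodes of the other 5 libraries. Their part in the levels of Lgals3, Cd9, Cd63 and Gpnmb in metastasis 1 was not tested.

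**Figure D2:**
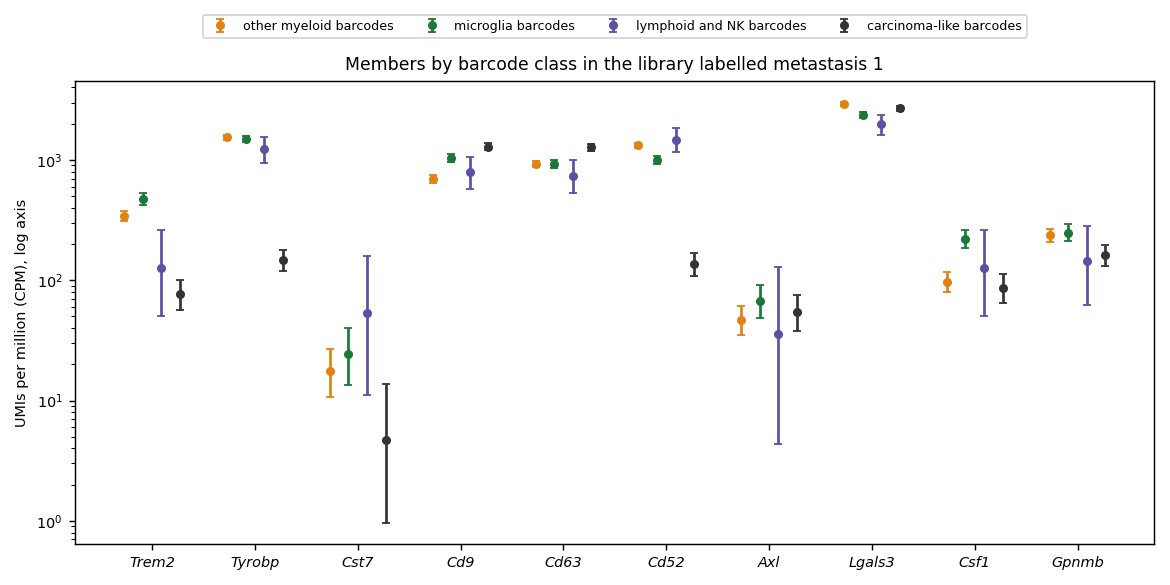
CPM of the 10 genes (vertical log axis) in other myeloid, microglial, lymphoid and natural killer, and carcinoma-like barcodes of the library labelled metastasis 1, with exact 95% Poisson intervals. Lgals3 lay between 1977 and 2924 CPM in all 4 classes, whereas Trem2 had 474 CPM in microglial and 76.4 CPM in carcinoma-like barcodes.

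Other myeloid barcodes were set against microglial barcodes of the same library in 6 libraries. They were the barcodes with under 3 microglial UMIs and most UMIs of a monocyte or macrophage, border-associated macrophage, neutrophil or dendritic list, and they numbered 566 in metastasis 1, 36 in metastasis 2, 35 in naive 1, 176 in naive 2, 83 in Cx3cr1-null and 47 in Cx3cr1-het. Lgals3 and Cd52 were higher in the other myeloid barcodes, while Trem2 and Csf1 were lower there. Of the 9 members tested, 2 were higher and 2 lower, beside 1.52% of 6050 genes called higher and 1.26% called lower. Gpnmb did not pass the filter on low counts.

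Lgals3 had 2924 CPM in other myeloid against 2365 CPM in microglial barcodes of metastasis 1, 1000 against 406 CPM in naive 2, 558 against 454 CPM in Cx3cr1-null and 1800 against 392 CPM in Cx3cr1-het. In naive 1 it had 150 against 24.2 CPM on 5 and 25 UMIs, and in metastasis 2 it had 0 and 6 UMIs. It was higher in other myeloid barcodes in 5 of 6 libraries, with a log2 change of 1.13 (SE 0.18, edgeR adjusted p = 1.28e-07). In this fit the SE and p-values draw on a spread shared over genes. For each gene below, they do not measure how far its own ratios differ between libraries. Cd52 had 1325 against 1003 CPM in metastasis 1, 1057 against 295 CPM in metastasis 2, 601 against 355 CPM in naive 1, 716 against 452 CPM in naive 2 and 1463 against 522 CPM in Cx3cr1-het. Only in Cx3cr1-null was it the other way, with 671 CPM in other myeloid and 752 CPM in microglial barcodes. Its log2 change over all 6 was 0.72 (SE 0.16, edgeR adjusted p = 0.000799).

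Trem2 was lower in other myeloid barcodes in 6 of 6 libraries. It had 342 against 474 CPM in metastasis 1, 1119 against 1558 CPM in metastasis 2, 991 against 1602 CPM in naive 1, 681 against 1211 CPM in naive 2, 1033 against 1326 CPM in Cx3cr1-null and 585 against 1250 CPM in Cx3cr1-het. Its log2 change was -0.69 (SE 0.16, edgeR adjusted p = 0.000851). Tyrobp, its adaptor, had a log2 change of -0.07 (SE 0.15, edgeR adjusted p = 0.984), with 1539 against 1491 CPM in metastasis 1 and 1375 against 1678 CPM in naive 2. The difference between the changes of Trem2 and Tyrobp was not tested.

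Csf1 was also lower in other myeloid barcodes in 6 of 6 libraries, with 96.3 against 221 CPM in metastasis 1, 131 against 263 CPM in naive 2, 82.6 against 123 CPM in Cx3cr1-null and 45.0 against 227 CPM in Cx3cr1-het. In metastasis 2 and naive 1 it rested on 1 UMI and 2 UMIs in other myeloid barcodes. Its log2 change was -1.13 (SE 0.23, edgeR adjusted p = 8.78e-05). Csf1r, the receptor for this ligand, was lower as well, with a log2 change of -0.50 (SE 0.15, edgeR adjusted p = 0.0231).

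The remaining members were not called. Cd9 was lower in 6 of 6 libraries, with a log2 change of -0.52 (SE 0.17, edgeR adjusted p = 0.0650), and other tetraspanins were called lower for 2 of 11, Cd81 with -0.95 (SE 0.16) and Cd37 with -0.62 (SE 0.19). Cst7 had a log2 change of -0.92 (SE 0.39), Cd63 of -0.06 (SE 0.17) and Axl of 0.12 (SE 0.27), with edgeR adjusted p-values of 0.278, 0.986 and 0.986. Gpnmb had 236 against 248 CPM in metastasis 1 and 118 against 80.4 CPM in naive 2.

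**Figure D3:**
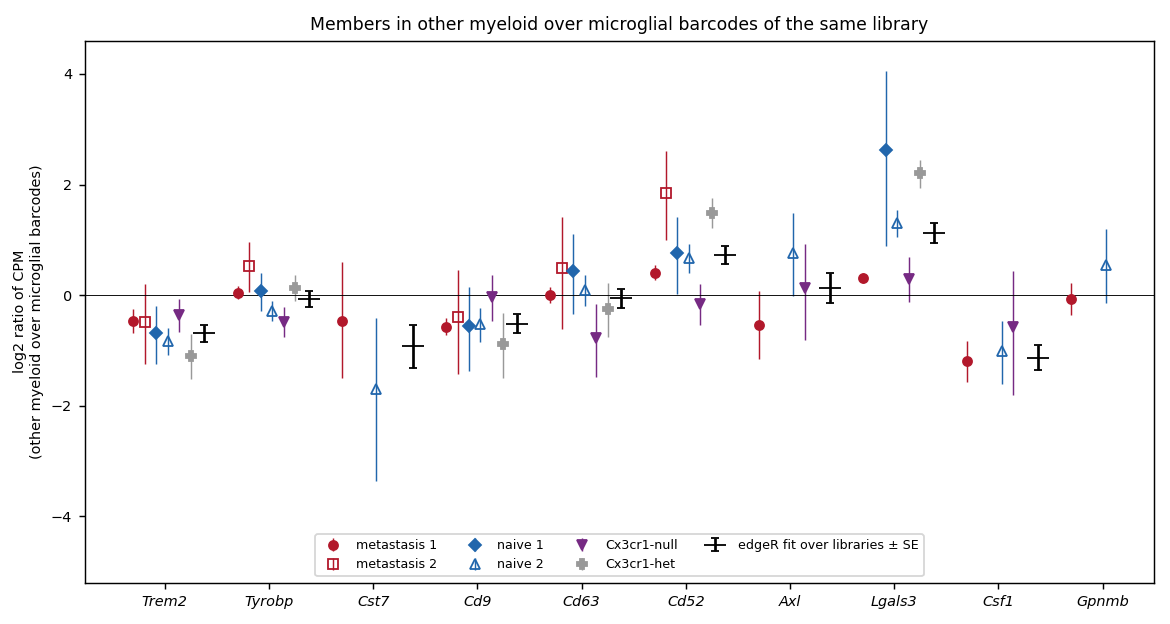
Log2 ratio of CPM in other myeloid over microglial barcodes of the same library (vertical axis) for each gene. Symbols are libraries with at least 5 UMIs in both classes, and thin bars are 95% counting intervals. Black marks are the edgeR log2 change ± SE of the fit to the 6 libraries, which is not the spread between them. Trem2 lay below 0 in every library, and Cd52 lay above 0 in all but Cx3cr1-null.

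Lists from the same biology moved alongside. Other disease-associated genes gave 3 higher and 2 lower of 16 tested, without genes used to choose the barcodes, such as Lyz2: Apoe (log2 change 1.03, lipid transport), Fabp5 (1.42, a fatty-acid carrier) and Spp1 (1.33, osteopontin) were higher, and the lysosomal proteases Ctsl (-0.64) and Ctsd (-0.44) were lower. Spp1 did not have 1 direction over the libraries: it had 978 against 41.3 CPM in naive 2 and 145 against 64.9 CPM in Cx3cr1-null, but 621 against 793 CPM in metastasis 1 and 78.8 against 101 CPM in Cx3cr1-het. Of 16 signalling partners of Trem2 and Tyrobp, Ms4a6d alone passed, and it was higher (0.72). MHC class II genes were higher for 5 of 6, namely H2-Eb1 (1.56), H2-Aa (1.43), H2-Ab1 (1.38), Cd74 (1.29) and H2-DMb1 (0.74). Homeostatic genes outside the choice of barcodes were lower for 10 of 14, led by Sall1 (-1.25), Olfml3 (-1.22) and P2ry13 (-1.14). Type I interferon genes were higher for 3 of 11, namely Ifi27l2a (0.93), Irf7 (0.89) and Ifitm3 (0.77). Of 8 chemokine and cytokine genes, Il1b was higher (1.02) and 5 were lower, namely Ccl3 (-1.02), Ccl4 (-1.01), Ccl12 (-0.94), Il1a (-0.78) and Cd83 (-0.53). Immediate-early genes, which dissociation is known to induce, were lower for 6 of 10, namely Egr1 (-0.87), Jun (-0.83), Atf3 (-0.71), Btg2 (-0.63), Junb (-0.58) and Fos (-0.58). Over all tested genes the median log2 change was -0.02.

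The other myeloid barcodes still held transcripts typical of microglia. Cst3, which encodes cystatin C and is abundant in microglia, had 4327 against 8067 CPM in metastasis 1, 43154 against 50024 CPM in metastasis 2, 31949 against 55295 CPM in naive 1, 8156 against 19755 CPM in naive 2, 13078 against 21600 CPM in Cx3cr1-null and 8991 against 21862 CPM in Cx3cr1-het. Trem2 was also found in astrocyte and choroid plexus barcodes, a class named for cells known to lack it. It had 770 CPM there in metastasis 2 (6 UMIs), 751 CPM in naive 2, 1267 CPM in Cx3cr1-null and 693 CPM in Cx3cr1-het. The other myeloid barcodes of those libraries had 1119, 681, 1033 and 585 CPM, so in 3 of the 4 they lay below that class, and expression of Trem2 by the other myeloid cells cannot be read from these levels. In Cx3cr1-het, 56.6% of the 175 astrocyte and choroid plexus barcodes held Trem2 and 57.1% held Tyrobp. Whether barcodes of that class, set by as few as 3 marker UMIs, held microglia was not tested. The part of transcripts typical of microglia in the ratios above was not tested either. With only the other myeloid barcodes that had no UMI of the 4 microglial genes, a choice made after seeing the data, 63 of 7145 genes were called in place of 168 of 6050. That fit also lost metastasis 2 and naive 1, which kept 8 and 3 such barcodes, under the minimum of 10, so the choice of barcodes and the loss of libraries cannot be told apart in it. Trem2 remained lower (log2 change -1.03, edgeR adjusted p = 0.0183), whereas Lgals3 (0.84, adjusted p = 0.115), Csf1 (-1.08, adjusted p = 0.0888) and Cd52 (0.63, adjusted p = 0.407) were no longer called by edgeR. Cd52 was also not called without Cx3cr1-het (log2 change 0.53, edgeR adjusted p = 0.129). Leaving out Cx3cr1-het, metastasis 1 or naive 2 lowered the number of genes called to 94, 94 and 97.

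From cell to cell within microglial barcodes, correlations between the 10 genes were low, and some pairs stood above most gene pairs of the same libraries. Each barcode was thinned to 800 UMIs, which left 189 barcodes in metastasis 1, 49 in metastasis 2, 408 in naive 1, 341 in naive 2, 748 in Cx3cr1-null and 655 in Cx3cr1-het, and Pearson's r of log2(thinned count + 1) was computed within each library. A pair was counted as moving together where r was 0.2 or more in at least 4 libraries, and as opposite where it was -0.2 or less. Neither held for any of the 45 member pairs, of which 15 joined the 6 genes found in at least 10% of thinned barcodes in 4 or more libraries (Trem2, Tyrobp, Cd9, Cd63, Cd52 and Lgals3). Among 499500 pairs of 1000 such genes, 0.0204% moved together and 0.0034% moved oppositely, so the mark was rarely passed by any genes at this depth and a count of 0 says little about the members. The median r over all these pairs had a median of -0.000887 and a 95th percentile of 0.0486. Of the 15 pairs of well-detected members, 6 lay above that percentile, namely Cd52 with Lgals3, Tyrobp with Cd52, Trem2 with Tyrobp, Cd9 with Cd63, Cd9 with Cd52 (0.076) and Tyrobp with Lgals3 (0.061).

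The highest medians stayed under 0.2. Cd52 with Lgals3 had r of 0.19 in metastasis 1, 0.28 in naive 1, 0.00 in naive 2, 0.08 in Cx3cr1-null and 0.18 in Cx3cr1-het, a median of 0.18, and metastasis 2 had no thinned Lgals3 UMI. Tyrobp with Cd52 had a median r of 0.16 and lay between 0.05 and 0.34. Trem2 with Tyrobp, the receptor and its adaptor, had a median r of 0.13, between 0.01 and 0.18, positive in 6 of 6 libraries. Cd9 with Cd63 had a median r of 0.09 and was negative in metastasis 2 and naive 2. Lgals3 with Gpnmb had 0.12 over the 4 libraries in which Gpnmb was seen. The pair Trem2 with Lgals3 had a median r of -0.01 and Trem2 with Cd52 also had -0.01. Sparse counts pull r toward 0, and barcodes of 1 library share their depth and free RNA, so these values only describe the libraries.

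The nearest gene of each well-detected member lay outside the list. Neighbours were ranked among 1000 genes, of which 6 were members, so this alone says little about how the members go together. For Trem2 the 3 nearest genes were Cst3 (median r 0.29), C1qc (0.21) and C1qb (0.20), and Tyrobp ranked 8 of its neighbours. For Tyrobp they were Cst3 (0.29), Tmsb4x (0.26) and B2m (0.25), with Cd52 at rank 11 and Trem2 at rank 22. Cd9 had Cst3 (0.13) and Cd81 (0.11) among its nearest genes, and Cd63 lay nearest to C1qb (0.13), Tmsb4x (0.12) and Ly86 (0.12). Cd52 lay nearest to B2m (0.21), H2-Ab1 (0.19) and Rps24 (0.18), with Lgals3 at rank 5. Lgals3 lay nearest to Ifitm3 (0.19), H2-Ab1 (0.18) and Cd52 (0.18), over 5 libraries, and was the only one with another member among its first 3.

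Against summed lists, the members had different partners, and differences between them were not tested. Trem2 and Tyrobp both had a median r of 0.30 with the sum of the homeostatic genes, past 0.2 in 6 and 5 of 6 libraries. Cd52 had 0.01 with that sum, and Lgals3 had -0.14 over 5 libraries. Tyrobp and Cd52 both had 0.25 with the sum of the other disease-associated genes, past 0.2 in 5 of 6 libraries each, whereas Trem2 had 0.08. That sum adds UMIs, so abundant genes weigh most in it. It includes B2m, which alone had 0.25 with Tyrobp and 0.21 with Cd52. Lgals3 had 0.21 with the summed monocyte and macrophage markers, 0.19 with MHC class II and -0.21 with immediate-early genes. Axl, Csf1, Cst7 and Gpnmb stayed between -0.09 and 0.10 with every list in the plot of median correlations. Technical measures moved too: with the mitochondrial percentage, the median r was -0.28 for Tyrobp, -0.16 for Cd9, -0.15 for Cd63, -0.14 for Trem2 and -0.11 for Cd52, past -0.2 in 3 of 6 libraries for both Tyrobp and Trem2. With the barcode's UMIs before thinning it was 0.16 for Tyrobp, 0.16 for Cd52 and 0.068 for Trem2. Their part in these correlations was not tested.

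**Figure D4:**
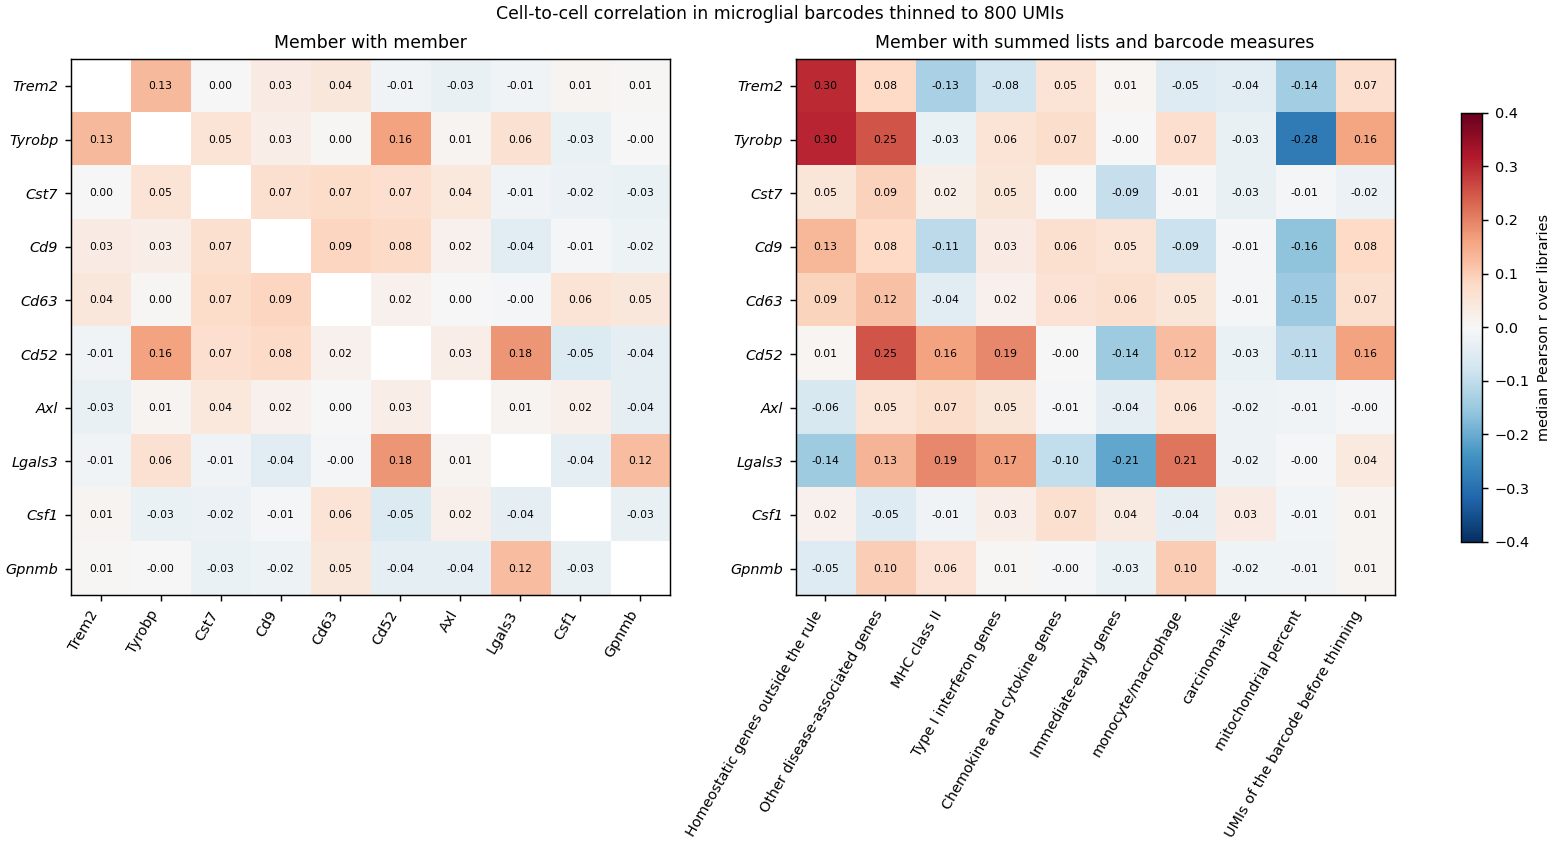
Median over libraries of the within-library Pearson r in microglial barcodes thinned to 800 UMIs, for pairs of the 10 genes (left) and for each gene with summed gene lists and barcode measures (right); red is positive and blue negative. The member pairs reach 0.18 at most (Cd52 with Lgals3), while Trem2 and Tyrobp both reach 0.30 with the homeostatic genes.

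The null and heterozygous libraries have 1 library each, so their differences have no replicate check and no test was made. In microglial barcodes, Axl had 123 CPM in Cx3cr1-null and 78.6 CPM in Cx3cr1-het, a log2 ratio of 0.65 (95% counting interval 0.33 to 0.97). Gpnmb had 19.7 and 10.4 CPM on 30 and 20 UMIs in null and het, a log2 ratio of 0.92 (0.05 to 1.81). Csf1 had 123 CPM in Cx3cr1-null and 227 CPM in Cx3cr1-het, a log2 ratio of -0.89 (-1.14 to -0.64). These were the members past 1.5-fold, 2 higher and 1 lower of 10, beside 5.05% of 7826 genes past that fold upward and 8.55% downward. Csf1 stayed past it under all 5 alternatives, with log2 ratios between -1.26 and -0.85. Axl was under it with the barcode filter (log2 ratio 0.43, interval -0.06 to 0.90) and had fewer than 50 UMIs with mixed barcodes left out. Gpnmb had fewer than 50 UMIs under every alternative but the one without mitochondrial UMIs.

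Below that fold, Cd52 had 752 CPM in Cx3cr1-null and 522 CPM in Cx3cr1-het (log2 ratio 0.53, and 0.72 with the barcode filter), Cd63 had 372 and 522 CPM in null and het (-0.49, and -1.23 with mixed barcodes left out), and Lgals3 had 454 and 392 CPM (0.21). Trem2 (1326 CPM in null and 1250 CPM in het), Tyrobp (1743 and 1702 CPM) and Cd9 (550 and 539 CPM) had counting intervals that included 0, as did Cst7 on 73 and 109 UMIs. With the barcode filter the intervals left out 0 for Trem2 (0.18, 0.06 to 0.29), Tyrobp (0.27, 0.18 to 0.36) and Cd9 (0.18, 0.01 to 0.36). Without mitochondrial UMIs they left out 0 for Trem2 (0.13) and Tyrobp (0.08). Among barcodes whose microglial UMIs exceeded every other class, Tyrobp had -0.13 (-0.22 to -0.04). With the threshold of 5 or mixed barcodes left out, all of these included 0. Other lists set the scale: 10 of 11 type I interferon genes were past 1.5-fold upward in Cx3cr1-null, with a median log2 ratio of 1.15, led by Isg15 (2.08), Oasl2 (1.70) and Ifit2 (1.52), while 0 of 16 signalling partners of Trem2 and Tyrobp were past it. Of 18 other disease-associated genes, Ch25h (1.30), Lpl (0.73) and Lyz2 (0.70) were past it upward and Spp1 (-0.64) downward. The 8 neutrophil markers summed to 1132 CPM in microglial barcodes of Cx3cr1-null and 491 CPM in those of Cx3cr1-het, and the monocyte and macrophage markers to 3536 and 2333 CPM. Their part in the null and het values was not tested. Microglial barcodes were also limited, after seeing the data, to those whose microglial UMIs exceeded every other class. Of the 9 members then holding at least 50 UMIs, 5 were past 1.5-fold. Axl (log2 ratio 0.59) and Lgals3 (0.74) were past it upward and Cd63 (-0.70), Cst7 (-0.92) and Csf1 (-0.92) downward. Of 6128 genes under that choice, 306 were past it upward and 551 downward. Gpnmb then held 16 and 4 UMIs in null and het, under the 50 required.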

How the data were processed

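Deposited per-library tables of UMI counts, 1000 barcodes each, were used as the authors made them; per the submitters' processing notes, reads were processed with STAR on mm10 and with Seurat, versions and roles not given in the sources used here. The counts were not normalized. Counts were summed per library and barcode class. Classes were set by fixed marker lists: 3 or more microglial UMIs made a barcode microglial, and otherwise the list with most UMIs (3 or more) decided, with ties unnamed. No barcode was removed and doublets were not removed; an alternative required 400 genes, under 10% mitochondrial UMIs and removal of the top 5% of doublet scores. Sums were tested with edgeR 4.0.16 in R 4.3.3 (quasi-likelihood, TMM, default low-count filter, Benjamini-Hochberg over all genes, threshold 0.05): metastasis against naive without covariates, and other myeloid against microglial with library as a block. The SE given for an edgeR fit is the size of the log2 change over the square root of its F statistic. DESeq2 1.42.0 was an alternative. Comparisons of 1 library with another have no test; counting intervals (95%) are exact and cover counting error only. The fits and the correlation were tested on simulated data. All 10 members were named, the 3 nearest genes of each well-detected member (1 neighbour of Cd9 is not reported here), and of each gene list those past the threshold or, where more than 6 passed, the 3 largest changes in each direction. The members and lists were chosen with earlier results of these data known.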

Additional observations from a re-analysis of the deposited data

Results flagged for a closer look

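For 8 of the 9 members with at least 50 UMIs over each pair, the 2 replicate pairs moved in opposite directions in microglial barcodes, and 0 lay outside the counting intervals of both pairs. The same held for 17.3% of 4118 genes, and same-numbered libraries deviated oppositely over all genes tested (r = -0.36). The difference between pairs was not tested over samples. The log2 ratio of metastasis over naive in replicate 1 minus that in replicate 2 was -2.12 for Trem2, -0.78 for Tyrobp, 1.59 for Cd63, 2.11 for Cd52, 3.89 for Axl, 10.8 for Lgals3 and 2.05 for Csf1. For Gpnmb it was 9.26 with a floor of 3 counts in each library that held none, so the size depends on that floor. The replicate 2 values of Axl rested on 3 UMIs in metastasis 2. Replicate 2 is the pair in which Rhox5 and Esx1 were listed for naive 2 and not for metastasis 2.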

How the results depend on the processing

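Metastasis over naive (0 calls) gave 60 calls without the filter on low counts and 0 to 3 with each library left out. The replicate block gave 0 calls; same-numbered libraries deviated oppositely (r = -0.36), and the crossed replicate block, added after seeing the data, gave 1 call. Among members, leaving out each library in turn gave log2 changes of -1.78 to 0.096 for Trem2, -0.58 to 0.049 for Tyrobp, -0.16 to 0.75 for Cd63, -0.48 to 1.13 for Cd52, -1.88 to 0.55 for Axl, -3.20 to 5.33 for Lgals3, -0.73 to 0.25 for Csf1 and -7.83 to 9.19 for Gpnmb. The sign turned without metastasis 1 for Trem2, Cd63, Cd52, Lgals3 and Gpnmb, without naive 1 for Tyrobp, and without metastasis 2 or naive 2 for Axl and Csf1. It also turned with the barcode filter for Axl (0.18), and with mixed barcodes left out for Csf1 (0.35) and Gpnmb (-0.20). None of these was called, and the cause was not tested. Other myeloid over microglial (168 calls) gave 85 with DESeq2, 94 to 189 with each library left out, 0 without the library block, and, chosen after seeing the data, 260 with Lyz2 left out of the markers and 63 with no microglial UMI (4 libraries left). The barcode filter left 4 libraries too, without metastasis 2 and Cx3cr1-null. Without the block, Lgals3 (0.95), Cd52 (0.75), Csf1 (-1.02) and Trem2 (-0.77) were not called. Cd52 was not called without the filter on low counts either (0.58), and Cd9 was called without Cx3cr1-null (-0.65) and with Lyz2 left out (-0.74). Uncalled members turned sign as follows: Tyrobp to 0.058 (barcode filter), 0.11 (mixed barcodes left out) and 0.081 (Lyz2 left out); Cd63 to 0.017 (no block), 0.12 (barcode filter) and 0.14 (mixed barcodes left out); Axl to -0.45 (no microglial UMI). With each library left out, Cd63 lay between -0.12 and 0.044, turning without Cx3cr1-null, and Axl between -0.12 and 0.43, turning without naive 2. Of the 45 member pairs, 0 moved together or oppositely under all 10 alternatives run; the highest median r lay between 0.10 (500 UMIs) and 0.34 (barcode filter, Lgals3 with Gpnmb). Cx3cr1-null over heterozygous had 3 members past 1.5-fold, and 5 where microglial UMIs exceeded every other class. It had 2 each with the barcode filter, the threshold of 5 and mixed barcodes left out, and 3 without mitochondrial UMIs. All genes past it upward and downward numbered 306 and 551 of 6128 with microglial UMIs above every other class, and 363 and 633 of 5522 with the barcode filter. They numbered 361 and 608 of 7051 with the threshold of 5 and 101 and 93 of 1192 with mixed barcodes left out. Without mitochondrial UMIs they numbered 479 and 569 of 7816. Depth limited metastasis 2 most, with 49 of 329 microglial barcodes at 800 UMIs.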

Other observations

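The endothelial barcodes of naive 2 (25 barcodes) held Csf1 at 301 CPM on 27 UMIs, beside 263 CPM in the microglial barcodes of that library, and Trem2 at 67.0 CPM on 6 UMIs, beside 1211 CPM. The astrocyte and choroid plexus barcodes of Cx3cr1-het (175 barcodes) held Trem2 at 693 CPM, Tyrobp at 729 CPM and Lgals3 at 297 CPM, so barcodes named for a cell type known to lack Trem2 still carried it. The lymphoid and natural killer barcodes of metastasis 1 (25 barcodes) held Tyrobp at 1222 CPM and Cd52 at 1474 CPM, beside 1491 and 1003 CPM in microglial barcodes, and Trem2 at 126 CPM, beside 474 CPM.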
